A study of Mus musculus with 8 samples.

Results

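The nuclear pore complex is a ring-shaped channel through the nuclear envelope that is built from many copies of a small set of proteins, the nucleoporins. Karyopherins, the importins and exportins, carry proteins and RNA through it, and the GTPase RAN sets the direction of the transport, because it is loaded with GTP in the nucleus by RCC1 and hydrolyses it in the cytoplasm with the help of RANGAP1. The genes described here are 47 listed genes of the nuclear pore, the classical importins, the exportins and the RAN cycle, listed by name. The list was set with earlier results of these data known, and membership used no measured value. Of these, 46 were found among the 23420 gene symbols of the RNA-seq tables and 1, Ndc1, was not listed under that symbol. All 46 passed the filter of at least 1 count in any library, which left 19424 genes for testing, and the least covered of them still held 8178 counts over all libraries.

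RNA-seq was performed on mouse embryonic stem cells (mESCs) of 2 lines, IPO13+/+ and IPO13-/-, the latter lacking Importin-13, a karyopherin that carries cargo in both directions. Both lines came from day 5 blastocysts of a mixed 129 x C57BL/6 background and grew without feeder cells in medium with LIF, the cytokine that maintains pluripotency. The 4 groups of 2 libraries were untreated IPO13+/+ mESCs, IPO13+/+ mESCs given 125 µM H2O2 during 1 h with 2 h of recovery in fresh medium, and the same pair for IPO13-/- mESCs. Each genotype is represented by 1 line, so that genotype and line cannot be told apart, and the sources do not say whether the 2 libraries of a group came from separate cultures, so that the tests measure only the spread between these libraries. From 60397877 to 73789079 reads were counted on genes per library. Ipo13 itself stood at 70.3 and 68.3 CPM (counts divided by the library total and scaled to a fixed sum, after TMM scaling of the library totals) in untreated and 72.4 and 69.3 CPM in H2O2-treated IPO13+/+ mESCs, against 25.9, 25.0, 24.9 and 25.9 CPM in the 4 IPO13-/- libraries. Its log2 fold change between the genotypes was -1.44 without and -1.48 with H2O2. The 8 listed pluripotency markers summed to between 6446 and 6914 CPM in IPO13+/+ and between 5751 and 5937 CPM in IPO13-/- mESCs, and those of fibroblasts, primitive endoderm, trophectoderm and neuroectoderm to between 2.04 and 19.5 CPM per list.

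Every gene was compared with edgeR's quasi-likelihood test in 1 fit of the 8 libraries, and a gene was called at a Benjamini-Hochberg FDR below 0.05. The question put to the data was whether the machinery itself changed at the RNA level, first after H2O2 in each genotype and then between the genotypes. None of the 46 genes changed 2-fold or more in any of the 4 comparisons. Over all genes tested, 2.9%, 2.89%, 4.71% and 4.56% were both called and changed at least 2-fold after H2O2 in IPO13+/+, after H2O2 in IPO13-/-, between untreated genotypes and between treated genotypes, respectively. Over the 7650 genes expressed, on average, at least as high as the lowest of the 46, these shares were 0.667%, 0.902%, 0.784% and 0.784%, so that a count of 0 among 46 genes is no result about them. The widest of the 46 changes was that of Nup188 between the treated genotypes, with a log2 fold change of 0.47. Together the 46 genes took 12784 and 12436 CPM in untreated IPO13+/+ mESCs, 11739.6 and 11771 CPM after H2O2, 12174 and 12043 CPM in untreated IPO13-/- mESCs and 11937 and 11717 CPM after H2O2. The summed level was thus lower in each treated library than in both untreated libraries of its genotype. The values describe shares of the counted RNA, and fewer transcripts per cell cannot be told apart from more RNA of other genes.

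**Figure D1:**
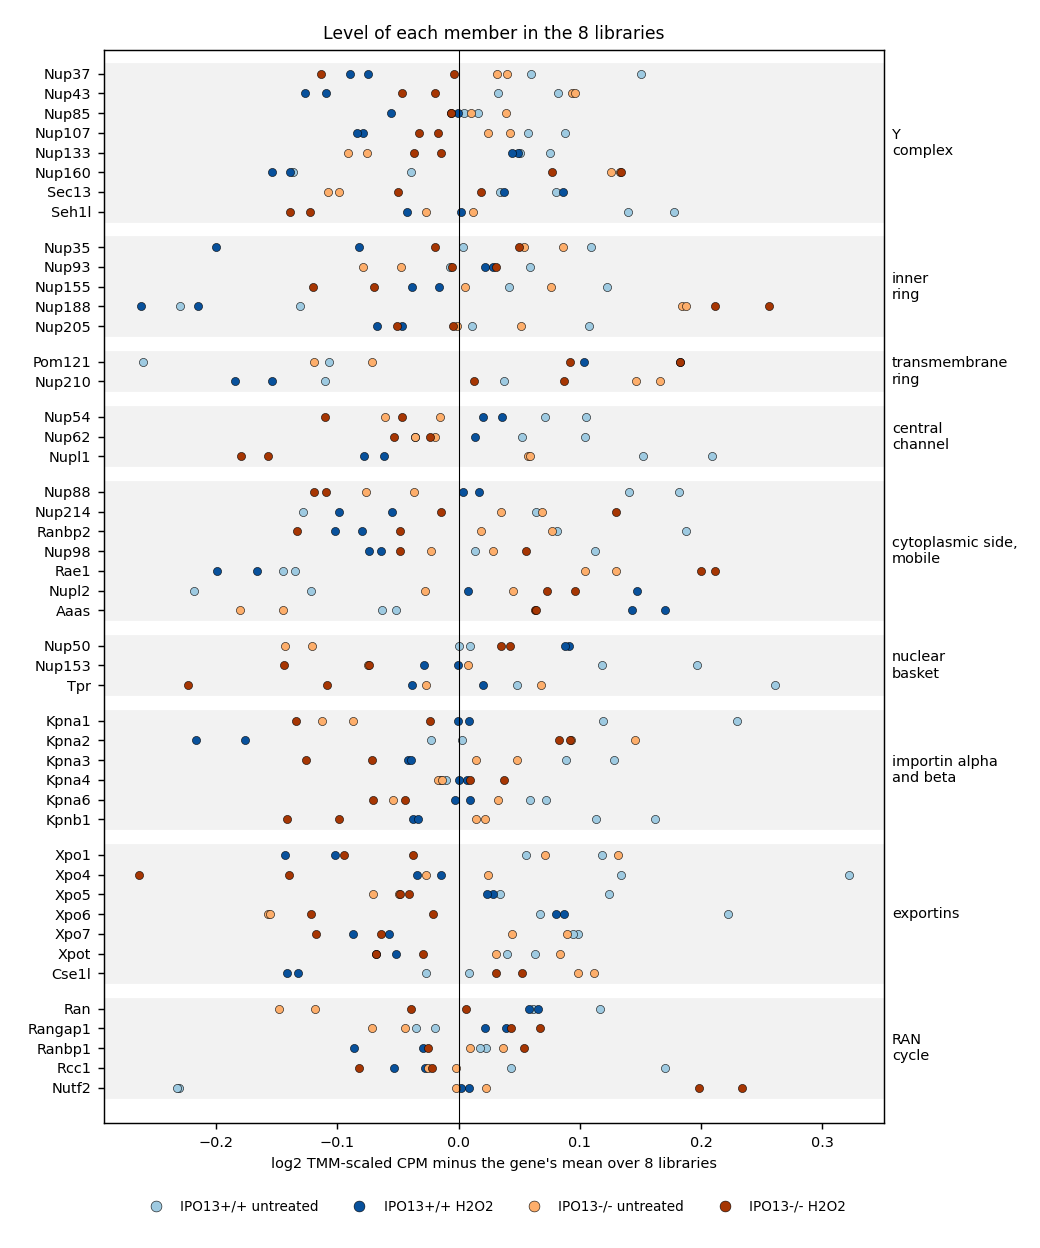
Level of each of the 46 genes in the 8 libraries, as log2 TMM-scaled CPM minus the gene's own mean over the libraries (horizontal axis), with genes ordered by role from top to bottom. Each point is 1 library, light and dark blue for untreated and treated IPO13+/+ mESCs and light and dark orange for untreated and treated IPO13-/- mESCs. Nup188 and Rae1 separate blue from orange points and Pom121 separates light from dark ones.

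Levels of different genes were compared per kilobase of merged exons. In untreated IPO13+/+ mESCs Ran was the highest at 406 ± 11.1 CPM per kb (SD, n = 2). It was followed by Ranbp1, which helps to release RAN from transport receptors in the cytoplasm, at 232 ± 0.562 CPM per kb and by Kpnb1, importin beta, at 229 ± 5.53 CPM per kb. The latter values lay within their spread of each other. Kpna2, the importin alpha that dominates in embryonic stem cells, reached 148 ± 1.84 CPM per kb, while Kpna3, Kpna6, Kpna1 and Kpna4 reached 52.5 ± 1.01, 25.043 ± 0.17, 24.997 ± 1.36 and 19.3 ± 0.0389 CPM per kb, so that only Kpna6 and Kpna1 lay within their spread. Among exportins Cse1l, which returns importin alpha to the cytoplasm, at 94.996 ± 1.67 and Xpo1, the export receptor for leucine-rich signals, at 92.5 ± 2.84 CPM per kb lay within their spread of each other and above the rest, which ran from 8.64 ± 0.795 CPM per kb for Xpo4 to 35.5 ± 0.395 CPM per kb for Xpot. Nucleoporins spanned a range from Nupl2 at 4.82 ± 0.228 CPM per kb to Nup62, a protein of the central channel, at 90.4 ± 2.303 CPM per kb. The scaffold subunits of the Y complex lay between 24.7 ± 1.17 (Nup160) and 57.5 ± 1.07 CPM per kb (Seh1l).

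Several of these levels are uncertain because other loci share their sequence. At least 97% identity over at least 100 bases with transcripts of other annotated genes covered 99.2% of the longest coding transcript of Nup35, 95.8% of Kpna2, 91.6% of Nutf2 and 53.3% of Nup54. The share was 26.9% for Ran and 26.1% for Ranbp1. Exons annotated for Nupl1 overlapped those of another gene model on the same strand over 55.4% of their bases. How reads shared by such loci were counted is not given in the sources used here.

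**Figure D2:**
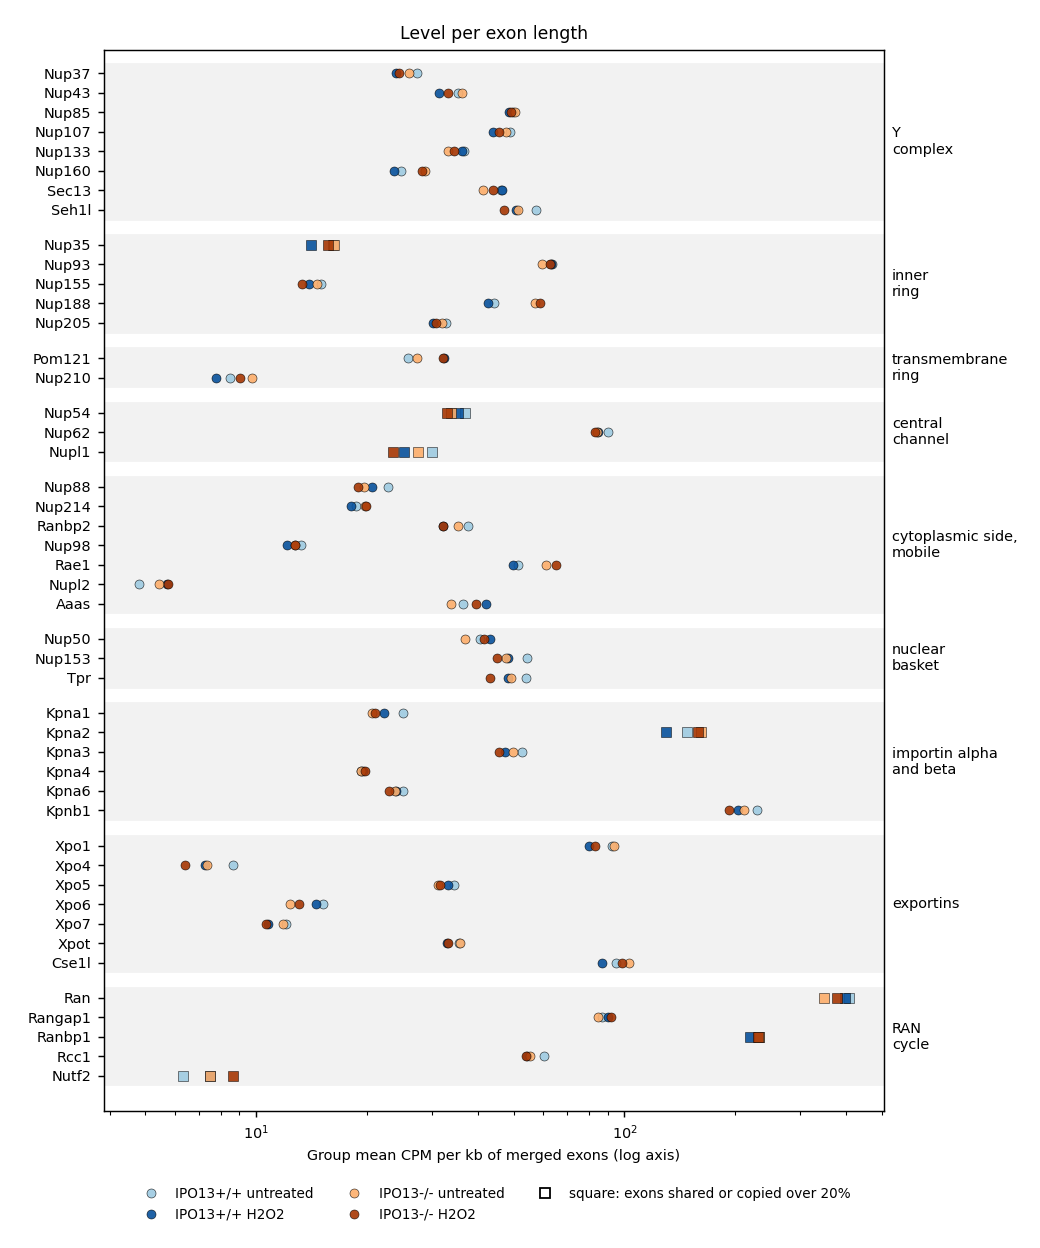
Mean level of each gene in the 4 groups as TMM-scaled CPM per kilobase of merged exons (log axis), genes ordered by role. Each point is the mean of 2 libraries, and squares mark genes whose exons or transcripts are shared with other loci over more than 20% of their length. Ran, Ranbp1, Kpnb1 and Kpna2 lie to the right of all other genes, and the 4 groups of a gene nearly coincide on this scale.

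The promoters of these genes are shown because the authors' question turned on transcription factors, among them SP1, that bind GC-rich promoter elements, and because part of the genes moved together. RefSeq promoters on GRCm38.p6 were found for 36 of the 46 genes, 40 promoters in all. In the 250 bases before the start site a GC box (GGGCGG, read on both strands) was present in 67.5% of the 40 promoters. It was present in 61.9% of 7466 promoters of genes expressed at least as high as the lowest of the 46, and in 32.7% of all 32851 promoters. A CCAAT box was present in 45.0% against 36.0% and 33.8%, and the core of the NRF1 motif (GCGCATGC, both strands, which overlap each other in a full palindromic site) in 6 of the 40 promoters against 5.26% and 2.26%. These 6 were the promoters of Nup50, Nup62, Nup107, Ran, Ranbp1 and Xpo5. The median GC content was 64.4% against 60.8% and 52.4%. A match describes the letters in this window and not a bound site. The 7 promoters printed, none of which overlaps an annotated exon, belong to Pom121, which rose after H2O2 in both genotypes, to Ranbp2, Xpo1 and Kpnb1, which fell in both, to Rae1 and Xpo6, which were higher and lower in IPO13-/- mESCs, and to Nup62, which carries both kinds of motif. They run 5′ to 3′ on the strand of the gene up to the base before its start site, and capitals mark GC boxes and NRF1 cores.
Pom121 (chr5:135394547-135394796, minus strand): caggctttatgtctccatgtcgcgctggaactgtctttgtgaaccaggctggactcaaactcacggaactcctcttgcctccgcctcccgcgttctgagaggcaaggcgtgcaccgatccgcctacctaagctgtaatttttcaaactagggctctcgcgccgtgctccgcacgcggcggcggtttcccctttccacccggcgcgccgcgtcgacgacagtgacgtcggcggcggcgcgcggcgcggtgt
Ranbp2 (chr10:58446602-58446851, plus strand): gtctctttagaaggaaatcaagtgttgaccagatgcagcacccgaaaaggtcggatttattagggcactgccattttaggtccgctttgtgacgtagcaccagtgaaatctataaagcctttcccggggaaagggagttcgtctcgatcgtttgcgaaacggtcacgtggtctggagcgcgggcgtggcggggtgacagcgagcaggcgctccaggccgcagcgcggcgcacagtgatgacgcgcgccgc
Xpo1 (chr11:23255791-23256040, plus strand): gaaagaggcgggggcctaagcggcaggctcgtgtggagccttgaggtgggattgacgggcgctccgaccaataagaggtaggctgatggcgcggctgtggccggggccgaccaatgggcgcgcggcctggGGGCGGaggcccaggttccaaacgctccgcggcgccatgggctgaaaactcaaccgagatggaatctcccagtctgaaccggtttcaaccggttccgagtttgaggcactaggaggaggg
Kpnb1 (chr11:97187893-97188142, minus strand): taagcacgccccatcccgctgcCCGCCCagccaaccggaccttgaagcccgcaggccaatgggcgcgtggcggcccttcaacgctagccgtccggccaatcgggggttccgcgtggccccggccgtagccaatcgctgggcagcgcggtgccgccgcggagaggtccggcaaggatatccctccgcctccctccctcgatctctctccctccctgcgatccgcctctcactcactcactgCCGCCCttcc
Rae1 (chr2:172999867-173000116, plus strand): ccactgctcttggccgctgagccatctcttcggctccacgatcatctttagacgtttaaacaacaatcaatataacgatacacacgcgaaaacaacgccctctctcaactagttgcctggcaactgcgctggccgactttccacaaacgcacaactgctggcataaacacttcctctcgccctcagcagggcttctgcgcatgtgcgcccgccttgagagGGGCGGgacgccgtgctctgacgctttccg
Xpo6 (chr7:126200502-126200751, minus strand): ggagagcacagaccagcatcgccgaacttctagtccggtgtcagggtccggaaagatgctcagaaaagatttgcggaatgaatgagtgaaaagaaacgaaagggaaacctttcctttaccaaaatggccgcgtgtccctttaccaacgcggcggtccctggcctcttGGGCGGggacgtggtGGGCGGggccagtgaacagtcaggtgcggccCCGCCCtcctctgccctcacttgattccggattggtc
Nup62 (chr7:44815838-44816087, plus strand): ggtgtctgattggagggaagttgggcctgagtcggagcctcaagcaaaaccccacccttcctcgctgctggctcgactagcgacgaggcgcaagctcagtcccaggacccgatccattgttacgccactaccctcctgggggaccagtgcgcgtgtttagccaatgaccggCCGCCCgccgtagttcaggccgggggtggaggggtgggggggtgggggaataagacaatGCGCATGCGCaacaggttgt

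After H2O2 in IPO13+/+ mESCs, 23 of the 46 genes fell, 4 rose and 19 were not called. The fallen genes came from every structural and transport class: 4 of 8 Y complex genes, 2 of 5 inner ring genes, 5 of 7 exportins and 4 of 6 importin genes among them. Xpo4, Nupl1, Ranbp2, Xpo1 and Nup35 fell most, and Pom121, Nupl2, Nutf2 and Aaas rose. The median log2 fold change was -0.11, against -0.05 over the 7650 genes. Over all genes tested 13.8% fell and 11.5% rose, and over those 7650 genes 26.3% fell and 12.5% rose. The 8.70% of the 46 genes that rose, 4 genes, lay near both backgrounds. The 50% that fell lay above both. Counts under other fits are not set beside a background here, so they do not show whether that excess holds in them. The count of fallen genes was 9 when the 4 libraries compared were fitted alone. It was 8 without treated IPO13+/+ replicate 1, 13 without replicate 2, and 15 without either untreated IPO13-/- replicate.

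After H2O2 in IPO13-/- mESCs, 12 of the 46 genes fell, 6 rose and 28 were not called. Nupl1, Xpo4, Tpr, Xpo1 and Xpo7 fell most, and Pom121, Aaas, Nutf2, Nup50, Ran and Rangap1 rose. The median log2 fold change was -0.035, against -0.01 over the 7650 genes. Of all genes 14.4% fell and 14.9% rose, and of the 7650 genes 22.6% fell and 21.7% rose, beside 26.1% and 13.0% of the 46 genes. With library totals in place of TMM factors 16 genes fell and 4 rose. Fewer genes fell without either untreated replicate or without treated replicate 2. The calls over all genes under these other fits are not set beside the counts here.

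The H2O2 comparisons of the genotypes share no library, so that their lists can be set side by side. Of the 23 genes that fell in IPO13+/+ mESCs, 11 also fell in IPO13-/- mESCs, which is 47.8% of the former and 91.7% of the latter list. Over the 7650 genes the genes lower in both made up 60.1% and 69.8% of the corresponding lists. The 11 genes were Nup43, Seh1l, Nupl1, Ranbp2, Tpr, Kpna3, Kpnb1, Xpo1, Xpo4, Xpo7 and Xpot. Pom121, Aaas and Nutf2 rose in both, 75% and 50% of the risen genes, beside 85% and 49% over the 7650 genes. No gene was called in opposite directions.

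**Figure D3:**
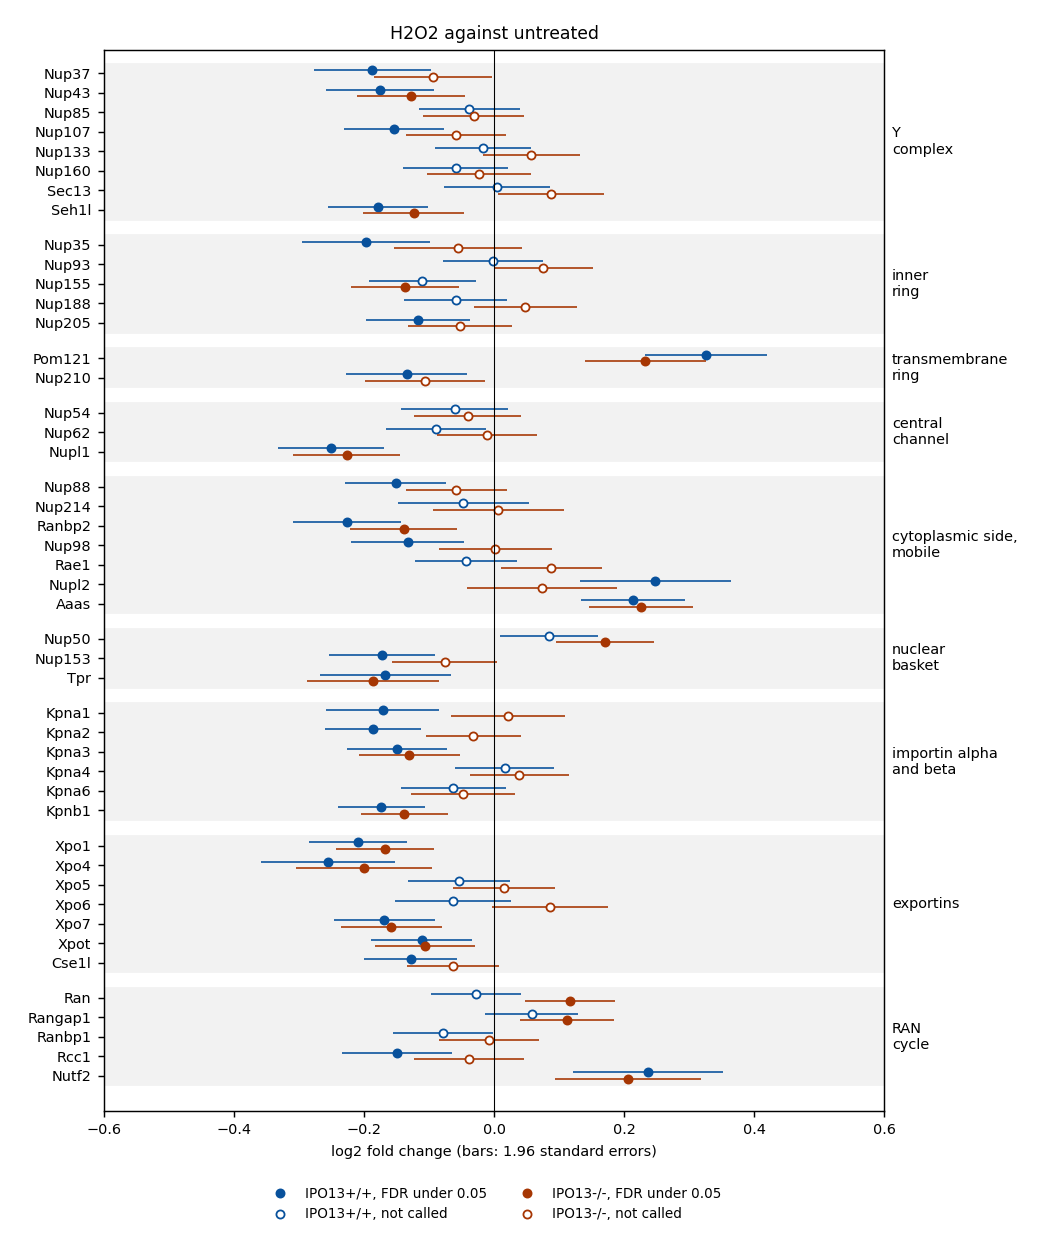
Log2 fold change of each of the 46 genes after H2O2 in IPO13+/+ (blue) and IPO13-/- (orange) mESCs, with bars of 1.96 standard errors and filled points for an FDR below 0.05. Genes are ordered by role. Pom121, Aaas and Nutf2 lie to the right of zero with filled points in both genotypes, and Nupl1, Ranbp2, Xpo1 and Xpo4 to the left.

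Among the scaffold of the pore, the Y complex forms the outer rings and the inner ring holds them to the membrane. Seh1l, a small propeller subunit of the Y complex, measured 234 and 240.0 CPM in untreated IPO13+/+ mESCs, 206 and 213 CPM after H2O2, 214 and 208 CPM in untreated IPO13-/- mESCs and 195 and 193 CPM after H2O2. Its treated libraries lay below the untreated ones of the same genotype, without overlap. It fell after H2O2 in IPO13+/+ (log2 fold change -0.18 ± 0.039 SE, FDR 0.00103) and in IPO13-/- mESCs (log2 fold change -0.12 ± 0.039 SE, FDR 0.0182), and it was lower in IPO13-/- than in IPO13+/+ mESCs, untreated (log2 fold change -0.17 ± 0.039 SE, FDR 0.00125) and treated (log2 fold change -0.11 ± 0.039 SE, FDR 0.0286). The last call was lost without any 1 of the 4 libraries compared. Nup43, another small Y complex subunit, fell in both genotypes (log2 fold change -0.18 ± 0.042 SE, FDR 0.00238, and -0.13 ± 0.042 SE, FDR 0.0224). Nup37 (log2 fold change -0.19 ± 0.046 SE, FDR 0.00286) and Nup107 (log2 fold change -0.15 ± 0.039 SE, FDR 0.0038) fell in IPO13+/+ mESCs, and their values in IPO13-/- mESCs were -0.094 ± 0.046 SE, FDR 0.138 and -0.058 ± 0.039 SE, FDR 0.305. Nup85, Nup133, Nup160 and Sec13 were called in neither genotype.

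Nup35, an inner ring protein that binds membranes, measured 52.3 and 56.3 CPM in untreated IPO13+/+ mESCs, 45.4 and 49.3 CPM after H2O2, 55.4 and 54.2 CPM in untreated IPO13-/- mESCs and 51.5 and 54.041 CPM after H2O2. Both treated IPO13+/+ libraries were below both untreated ones, while the IPO13-/- values lay closer together, with 54.2 and 54.0 CPM as the nearest values of the untreated and treated groups. It fell in IPO13+/+ mESCs (log2 fold change -0.20 ± 0.050 SE, FDR 0.00413), and this call was lost without treated replicate 1 and with only the 4 libraries compared. Nup205, a large solenoid of the inner ring, fell in IPO13+/+ (log2 fold change -0.12 ± 0.041 SE, FDR 0.035), and Nup155, which contacts the membrane, fell in IPO13-/- mESCs (log2 fold change -0.14 ± 0.042 SE, FDR 0.0153). The values of Nup93, the linker of the inner ring, were -0.0017 ± 0.039 SE, FDR 1 in IPO13+/+ and 0.076 ± 0.039 SE, FDR 0.161 in IPO13-/- mESCs.

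Of the membrane-spanning nucleoporins, Pom121 (chr5:135376141-135394546, minus strand), which takes part in the assembly of new pores in interphase, measured 151 and 136 CPM in untreated IPO13+/+ mESCs, 185 and 175 CPM after H2O2, 155 and 150.1 CPM in untreated IPO13-/- mESCs and 185 and 174 CPM after H2O2. Every treated library lay above every untreated library. Pom121 rose after H2O2 in IPO13+/+ (log2 fold change 0.33 ± 0.048 SE, FDR 6.8e-06) and in IPO13-/- mESCs (log2 fold change 0.23 ± 0.048 SE, FDR 0.000411), and its interval for the difference between the responses was -0.23 to 0.040. Its exons overlap those of Nsun5, on the opposite strand, over 11.9% of their bases, and reads of the pair cannot be told apart without strand. Nup210, the other membrane protein measured, fell in IPO13+/+ mESCs (log2 fold change -0.13 ± 0.048 SE, FDR 0.0383) and had a value of -0.11 ± 0.047 SE, FDR 0.0973 in IPO13-/- mESCs. The tables list Tmem48, an older symbol of Ndc1, and it measured 74.2 and 69.2 CPM in untreated IPO13+/+ mESCs, 82.7 and 84.3 CPM after H2O2, 61.8 and 64.8 CPM in untreated IPO13-/- mESCs and 70.5 and 68.4 CPM after H2O2. It was not counted among the 46 genes. Tmem48 rose in both genotypes (log2 fold change 0.22 ± 0.046 SE, FDR 0.00059, and 0.14 ± 0.047 SE, FDR 0.0287) and was lower in IPO13-/- mESCs, untreated (log2 fold change -0.18 ± 0.046 SE, FDR 0.0026) and treated (log2 fold change -0.26 ± 0.046 SE, FDR 3.71e-05).

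The central channel is filled by Nup62, Nup54 and Nupl1, whose phenylalanine-glycine repeats bind the karyopherins. Nupl1 (chr14:60184612-60251431, minus strand) measured 106 and 110.1 CPM in untreated IPO13+/+ mESCs, 90.2 and 91.2 CPM after H2O2, 99.1 and 99.2 CPM in untreated IPO13-/- mESCs and 85.4 and 84.1 CPM after H2O2. The treated libraries were below the untreated ones in each genotype, with no overlap. Nupl1 fell in IPO13+/+ (log2 fold change -0.25 ± 0.042 SE, FDR 4e-05) and IPO13-/- mESCs (log2 fold change -0.23 ± 0.042 SE, FDR 0.000129). Its partners Nup62 and Nup54 were called in neither genotype, with log2 fold changes in IPO13+/+ mESCs of -0.090 ± 0.039 SE, FDR 0.0994, and -0.061 ± 0.042 SE, FDR 0.344.

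On the cytoplasmic side, Ranbp2 (chr10:58446920-58494356, plus strand) encodes the filament protein that binds RAN and joins SUMO to other proteins. It measured 456 and 423 CPM in untreated IPO13+/+ mESCs, 373 and 379 CPM after H2O2, 422 and 406 CPM in untreated IPO13-/- mESCs and 387 and 365 CPM after H2O2. Treated libraries were below untreated ones in both genotypes. Ranbp2 fell in IPO13+/+ (log2 fold change -0.23 ± 0.042 SE, FDR 0.000164) and IPO13-/- mESCs (log2 fold change -0.14 ± 0.042 SE, FDR 0.0129). Aaas, which encodes the nucleoporin ALADIN, measured 102 and 101 CPM in untreated IPO13+/+ mESCs, 117 and 119 CPM after H2O2, 93.5 and 95.8 CPM in untreated IPO13-/- mESCs and 111 and 111 CPM after H2O2, and every treated library lay above every untreated one. Aaas rose in IPO13+/+ (log2 fold change 0.21 ± 0.041 SE, FDR 0.000227) and IPO13-/- mESCs (log2 fold change 0.23 ± 0.041 SE, FDR 9.66e-05). Nupl2, which takes part in mRNA export with Gle1, was among the least abundant, with 17.5 and 18.8 CPM in untreated IPO13+/+ mESCs, 20.5 and 22.6 CPM after H2O2, 21.048 and 20.021 CPM in untreated IPO13-/- mESCs and 21.5 and 21.8 CPM after H2O2. It rose in IPO13+/+ mESCs (log2 fold change 0.25 ± 0.059 SE, FDR 0.00231), a call that was lost without treated replicate 2, and its value in IPO13-/- mESCs was 0.074 ± 0.059 SE, FDR 0.411. Nup88 and Nup98 fell in IPO13+/+ mESCs (log2 fold change -0.15 ± 0.040 SE, FDR 0.00511, and -0.13 ± 0.044 SE, FDR 0.0274), and their values in IPO13-/- mESCs were -0.058 ± 0.040 SE, FDR 0.323, and 0.0017 ± 0.044 SE, FDR 1. Nup214 and Rae1 were called in neither genotype.

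In the nuclear basket, Tpr (chr1:150392838-150449935, plus strand), the coiled-coil protein of its filaments, measured 609.6 and 526 CPM in untreated IPO13+/+ mESCs, 495 and 516 CPM after H2O2, 533 and 499 CPM in untreated IPO13-/- mESCs and 472 and 436 CPM after H2O2. Untreated replicate 1 of IPO13+/+ mESCs stood above the other libraries, and the treated libraries lay below the untreated ones of their genotype. Tpr fell in IPO13+/+ (log2 fold change -0.17 ± 0.052 SE, FDR 0.0166) and IPO13-/- mESCs (log2 fold change -0.19 ± 0.052 SE, FDR 0.0068), the latter call being lost without either untreated IPO13-/- library or without treated replicate 2. Nup153, which anchors the basket, fell in IPO13+/+ mESCs (log2 fold change -0.17 ± 0.041 SE, FDR 0.00237) and had a value of -0.076 ± 0.041 SE, FDR 0.191 in IPO13-/- mESCs. Nup50, a mobile basket protein that helps importin alpha to release its cargo, measured 199 and 198 CPM in untreated IPO13+/+ mESCs, 211 and 210.4 CPM after H2O2, 182 and 179 CPM in untreated IPO13-/- mESCs and 204 and 203 CPM after H2O2. Its treated libraries lay above its untreated ones in both genotypes. Nup50 rose in IPO13-/- mESCs (log2 fold change 0.17 ± 0.039 SE, FDR 0.00112), and its value in IPO13+/+ mESCs was 0.085 ± 0.038 SE, FDR 0.113.

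Importin alpha proteins bind the classical import signal and importin beta ferries the pair through the pore. Kpnb1 (chr11:97159714-97187881, minus strand) measured 1536 and 1485 CPM in untreated IPO13+/+ mESCs, 1337 and 1342 CPM after H2O2, 1394 and 1387 CPM in untreated IPO13-/- mESCs and 1282 and 1244 CPM after H2O2. It fell in IPO13+/+ (log2 fold change -0.17 ± 0.034 SE, FDR 0.000336) and IPO13-/- mESCs (log2 fold change -0.14 ± 0.034 SE, FDR 0.00275), with treated libraries below untreated ones in both. Kpna3 also fell in both (log2 fold change -0.15 ± 0.039 SE, FDR 0.00548, and -0.13 ± 0.040 SE, FDR 0.0133). Kpna1 (log2 fold change -0.17 ± 0.044 SE, FDR 0.00452) and Kpna2 (log2 fold change -0.19 ± 0.038 SE, FDR 0.000429) fell in IPO13+/+ mESCs, and their values in IPO13-/- mESCs were 0.022 ± 0.044 SE, FDR 0.785, and -0.032 ± 0.038 SE, FDR 0.593. Kpna4 and Kpna6 were called in neither.

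Of the 7 exportins, 5 fell in IPO13+/+ and 4 in IPO13-/- mESCs, and none rose in either. Of the 7650 genes 26.3% and 22.6% fell, and 12.5% and 21.7% rose. At these shares the absence of a rise among 7 genes is no result about exportins. Xpo4 (chr14:57577521-57665430, minus strand), which exports a small set of proteins and also imports some, measured 98.8 and 86.7 CPM in untreated IPO13+/+ mESCs, 77.1 and 78.2 CPM after H2O2, 80.4 and 77.6 CPM in untreated IPO13-/- mESCs and 71.7 and 65.8 CPM after H2O2. Its treated libraries lay below its untreated ones in each genotype, although the untreated IPO13+/+ replicates differed by more than those of its other groups. Xpo4 fell in IPO13+/+ (log2 fold change -0.25 ± 0.053 SE, FDR 0.000518) and IPO13-/- mESCs (log2 fold change -0.20 ± 0.053 SE, FDR 0.00503). Xpo1 (chr11:23256041-23298249, plus strand), also known as CRM1, measured 679 and 649.9 CPM in untreated IPO13+/+ mESCs, 566 and 583 CPM after H2O2, 685 and 657 CPM in untreated IPO13-/- mESCs and 609 and 586 CPM after H2O2, and again treated and untreated libraries did not overlap within a genotype. It fell in IPO13+/+ (log2 fold change -0.21 ± 0.039 SE, FDR 0.000145) and IPO13-/- mESCs (log2 fold change -0.17 ± 0.039 SE, FDR 0.00132). Xpo7, a broad-range exportin, measured 229.8 and 229 CPM in untreated IPO13+/+ mESCs, 202 and 206 CPM after H2O2, 228 and 221 CPM in untreated IPO13-/- mESCs and 205 and 198 CPM after H2O2 and fell in both (log2 fold change -0.17 ± 0.039 SE, FDR 0.00187, and -0.16 ± 0.040 SE, FDR 0.00297). In IPO13-/- mESCs the calls of Xpo1, Xpo4 and Xpo7 were lost without untreated replicate 1 or treated replicate 2, and that of Xpo4 also without untreated replicate 2. Xpot, the exportin for tRNA, fell in both (log2 fold change -0.11 ± 0.039 SE, FDR 0.0381, and -0.11 ± 0.039 SE, FDR 0.0431), and Cse1l fell in IPO13+/+ mESCs (log2 fold change -0.13 ± 0.036 SE, FDR 0.00974). Xpo5, which exports microRNA precursors, and Xpo6, which exports actin, were called in neither genotype.

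Of the 5 RAN cycle genes, 1 rose and 1 fell in IPO13+/+ mESCs, and 3 rose and 0 fell in IPO13-/- mESCs. Nutf2 (chr8:105860580-105879330, plus strand), which carries RAN bound to GDP back into the nucleus, measured 12.9 and 12.9 CPM in untreated IPO13+/+ mESCs, 15.2 and 15.2 CPM after H2O2, 15.4 and 15.1 CPM in untreated IPO13-/- mESCs and 17.8 and 17.4 CPM after H2O2. Treated libraries lay above untreated ones in each genotype, and its depth was 865 to 1164 counts per library. Nutf2 rose in IPO13+/+ (log2 fold change 0.24 ± 0.059 SE, FDR 0.00316) and IPO13-/- mESCs (log2 fold change 0.21 ± 0.057 SE, FDR 0.00714), with the limit that 91.6% of its transcript matches transcripts of other annotated genes. Ran (chr5:129020069-129024323, plus strand) measured 1054 and 1095 CPM in untreated IPO13+/+ mESCs, 1051 and 1057 CPM after H2O2, 911 and 930.4 CPM in untreated IPO13-/- mESCs and 983 and 1014 CPM after H2O2. The treated IPO13-/- libraries lay above the untreated ones, while the IPO13+/+ libraries overlapped. Ran rose in IPO13-/- mESCs (log2 fold change 0.12 ± 0.036 SE, FDR 0.0136), a call lost with library totals in place of TMM factors, without untreated replicate 1 and without treated replicate 2, and its value in IPO13+/+ mESCs was -0.028 ± 0.036 SE, FDR 0.643. Rangap1 rose in IPO13-/- mESCs (log2 fold change 0.11 ± 0.037 SE, FDR 0.021), Rcc1 fell in IPO13+/+ mESCs (log2 fold change -0.15 ± 0.043 SE, FDR 0.0107), and Ranbp1 was called in neither.

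Promoter letters were set beside these directions. A gene counted if any of its promoters held the motif. The shares given above are per promoter, so they are no background for these counts, and none was taken by gene. Of the 15 genes with a promoter that fell in IPO13+/+ mESCs, 12 held a GC box in the window, of the 17 not called 13 did, and of the 4 that rose 1 did. In IPO13-/- mESCs 5 of the 7 that fell, 17 of the 23 not called and 4 of the 6 that rose did. Pom121 and Aaas, which rose in both genotypes, and Nupl2, which rose in IPO13+/+ mESCs, held none.

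Between the genotypes without treatment, 18 of the 46 genes were lower and 8 higher in IPO13-/- than in IPO13+/+ mESCs. Xpo6, Kpna1, Xpo4, Ran and Nup88 were the most reduced, and Nup188, Rae1, Nutf2, Nup160 and Nup210 the most raised. Of all genes tested 19.4% were lower and 18.7% higher, and of the 7650 genes 31.8% and 21.6%, beside 39.1% and 17.4% of the 46 genes. The median log2 fold change was -0.065, against -0.04 over the 7650 genes, and it became 0.015 with library totals in place of TMM factors, a scaling under which 6 genes were lower and 12 higher. Without untreated IPO13-/- replicate 1 or 2, fewer genes were lower. The calls over all genes under these other fits are not set beside the counts here. Of the 8 pluripotency markers, 4 were lower and 2 higher in untreated IPO13-/- mESCs, with Dppa5a the most reduced (log2 fold change -0.59 ± 0.036 SE, FDR 4.41e-13), and 1, Dppa5a, was lower after H2O2 (log2 fold change -0.47 ± 0.036 SE, FDR 4.47e-11). The neuroectoderm markers Pax6 and Sox1 summed to 11.2 and 10.6 CPM in untreated and 8.07 and 7.57 CPM in treated IPO13+/+ mESCs, against 8.58 and 8.57 CPM and 4.69 and 4.45 CPM in IPO13-/- mESCs, with Pax6 higher and Sox1 lower in IPO13-/- mESCs. The part of these markers in the genotype differences was not tested.

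Between the genotypes after H2O2, 6 of the 46 genes were lower and 9 higher in IPO13-/- mESCs. Xpo4, Tpr, Xpo6, Nup88, Seh1l and Nup54 were lower, and Nup188, Rae1, Kpna2, Nup160 and Nup210 were raised most. Of all genes 17.5% were lower and 19.1% higher, and of the 7650 genes 23.3% and 26.2%, beside 13.0% and 19.6% of the 46 genes. The median of -0.0085 was close to 0 and changed sign with library totals (0.00052). With relative log expression factors 11 genes were lower and 8 higher, and with only the 4 libraries compared 10 were lower. The lower count rose without either untreated IPO13+/+ replicate and shrank without any 1 of the 4 libraries compared. The calls over all genes under these other fits are not set beside the counts here.

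The genotype comparisons without and with H2O2 share no library. Of 8 genes higher without and 9 higher with H2O2, 7 were the same: Nup160, Nup188, Nup210, Rae1, Kpna2, Cse1l and Nutf2. They were 87.5% and 77.8% of these lists, beside 83.5% and 68.8% over the 7650 genes. All 6 genes lower after H2O2, Seh1l, Nup54, Nup88, Tpr, Xpo4 and Xpo6, were among the 18 lower without treatment. Over the 7650 genes 80.5% of those lower after H2O2 were also lower without it. Conversely, the 6 genes made up 33.3% of the 18, beside 58.9% over the 7650 genes. Nup35 (log2 fold change 0.16 ± 0.051 SE, FDR 0.0168) and Nup214 (log2 fold change 0.14 ± 0.052 SE, FDR 0.0397) were called higher after H2O2, and Nupl2 (log2 fold change 0.18 ± 0.060 SE, FDR 0.0182) without treatment, each in that comparison alone and with no interaction call.

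**Figure D4:**
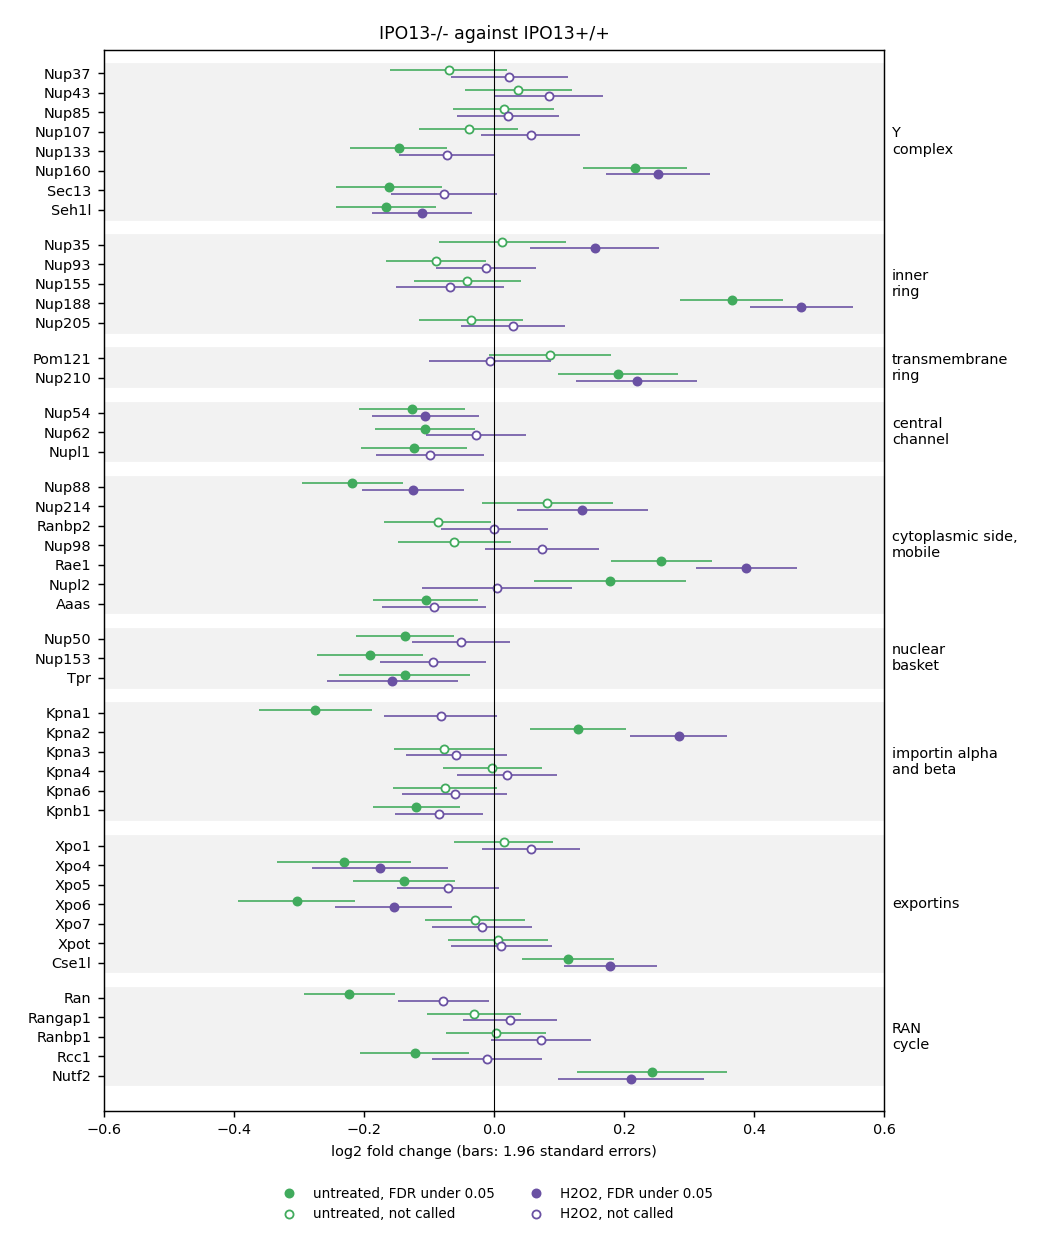
Log2 fold change of each of the 46 genes in IPO13-/- against IPO13+/+ mESCs, untreated (green) and after H2O2 (purple), with bars of 1.96 standard errors and filled points for an FDR below 0.05. Genes are ordered by role. Nup188 reaches 0.37 and 0.47, Rae1 0.26 and 0.39, and Xpo6 lies at -0.30 and -0.15.

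Nup188 (chr2:30286397-30344266, plus strand), a large scaffold protein of the inner ring, measured 286 and 267 CPM in untreated IPO13+/+ mESCs, 269.6 and 261 CPM after H2O2, 356 and 356 CPM in untreated IPO13-/- mESCs and 374 and 362 CPM after H2O2. Each IPO13-/- library lay above each IPO13+/+ library. It was higher in IPO13-/- mESCs without (log2 fold change 0.37 ± 0.041 SE, FDR 3.55e-08) and with H2O2 (log2 fold change 0.47 ± 0.041 SE, FDR 3.66e-10). Other gene models overlap 12.4% of the exon bases of Nup188, the largest part from Gm14471 on the opposite strand. Reads of that pair cannot be told apart without strand. Rae1 (chr2:173000117-173015739, plus strand), the partner of Nup98 in mRNA export and a regulator of the spindle, measured 130.4 and 131 CPM in untreated IPO13+/+ mESCs, 129 and 126 CPM after H2O2, 155 and 158 CPM in untreated IPO13-/- mESCs and 166 and 167 CPM after H2O2. Again every IPO13-/- library lay above every IPO13+/+ one, and the differences were 0.26 ± 0.040 SE, FDR 7.31e-06 without and 0.39 ± 0.040 SE, FDR 9.42e-09 with H2O2. Nup160, a scaffold protein of the Y complex, measured 223 and 209 CPM in untreated IPO13+/+ mESCs, 206 and 208 CPM after H2O2, 250.4 and 252 CPM in untreated IPO13-/- mESCs and 252 and 242 CPM after H2O2. It was higher in IPO13-/- mESCs untreated (log2 fold change 0.22 ± 0.041 SE, FDR 0.000103) and treated (log2 fold change 0.25 ± 0.041 SE, FDR 1.55e-05), without overlap between the genotypes.

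Nup210 measured 93.7 and 84.6 CPM in untreated IPO13+/+ mESCs, 82.1 and 80.3 CPM after H2O2, 102 and 101 CPM in untreated IPO13-/- mESCs and 96.9 and 92.1 CPM after H2O2. Its IPO13-/- libraries lay above the IPO13+/+ libraries of the same treatment (log2 fold change 0.19 ± 0.047 SE, FDR 0.0018 untreated, and 0.22 ± 0.048 SE, FDR 0.000515 treated). Kpna2 measured 421 and 428 CPM in untreated IPO13+/+ mESCs, 368 and 378 CPM after H2O2, 455 and 473 CPM in untreated IPO13-/- mESCs and 455 and 453 CPM after H2O2 and was higher in IPO13-/- mESCs untreated (log2 fold change 0.13 ± 0.038 SE, FDR 0.00723) and treated (log2 fold change 0.28 ± 0.038 SE, FDR 7.73e-07). Its near-identical copies elsewhere in the genome leave its reads uncertain. Cse1l, which recycles importin alpha, was higher as well (log2 fold change 0.11 ± 0.036 SE, FDR 0.0139 untreated, and 0.18 ± 0.036 SE, FDR 0.000263 treated), and so was Nutf2 (log2 fold change 0.24 ± 0.059 SE, FDR 0.00151 untreated, and 0.21 ± 0.057 SE, FDR 0.00434 treated).

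Xpo6 (chr7:126101715-126200501, minus strand) measured 271 and 244 CPM in untreated IPO13+/+ mESCs, 247 and 246 CPM after H2O2, 209 and 209 CPM in untreated IPO13-/- mESCs and 229 and 214 CPM after H2O2. Each IPO13-/- library lay below each IPO13+/+ library. Xpo6 was lower in IPO13-/- mESCs untreated (log2 fold change -0.30 ± 0.046 SE, FDR 4.92e-06) and treated (log2 fold change -0.15 ± 0.046 SE, FDR 0.00849). Xpo4 was lower too (log2 fold change -0.23 ± 0.052 SE, FDR 0.000808 untreated, and -0.18 ± 0.053 SE, FDR 0.0101 treated), the former call being lost without untreated IPO13-/- replicate 2, as was Tpr (log2 fold change -0.14 ± 0.052 SE, FDR 0.0362 untreated, and -0.16 ± 0.052 SE, FDR 0.018 treated). Nup88, which holds Nup214 at the cytoplasmic face, measured 189 and 183 CPM in untreated IPO13+/+ mESCs, 167 and 168 CPM after H2O2, 158 and 162 CPM in untreated IPO13-/- mESCs and 153 and 154 CPM after H2O2, with all IPO13-/- libraries below all IPO13+/+ ones, and was lower untreated (log2 fold change -0.22 ± 0.040 SE, FDR 6.59e-05) and treated (log2 fold change -0.12 ± 0.040 SE, FDR 0.0144). Of these calls in treated cells, those of Nup88, Xpo4, Xpo6 and Tpr were each lost without at least 1 library of the compared groups, and Tpr also missed the threshold with limma-voom (FDR 0.0652).

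Kpna1 measured 220.3 and 204 CPM in untreated IPO13+/+ mESCs, 188 and 189 CPM after H2O2, 177 and 174 CPM in untreated IPO13-/- mESCs and 185 and 171 CPM after H2O2. The IPO13-/- libraries lay below the IPO13+/+ libraries of the same treatment, by a wider margin without H2O2. It was lower in untreated IPO13-/- mESCs (log2 fold change -0.27 ± 0.044 SE, FDR 1.31e-05), and its value after H2O2 was -0.082 ± 0.044 SE, FDR 0.163. Ran was lower in untreated IPO13-/- mESCs (log2 fold change -0.22 ± 0.036 SE, FDR 1.18e-05), and its difference after H2O2 was -0.078 ± 0.036 SE, FDR 0.0913. Other genes lower in untreated IPO13-/- mESCs were those of the basket, Nup153 (log2 fold change -0.19 ± 0.041 SE, FDR 0.000504) and Nup50 (log2 fold change -0.14 ± 0.038 SE, FDR 0.00554), of the channel, Nup62 (log2 fold change -0.11 ± 0.039 SE, FDR 0.0332), and of importin beta, Kpnb1 (log2 fold change -0.12 ± 0.034 SE, FDR 0.00632). The remaining 7 of the 18, Nup133, Sec13, Nup54, Nupl1, Aaas, Xpo5 and Rcc1, had log2 fold changes between -0.16 and -0.11.

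Whether the response to H2O2 differed between the genotypes was tested as the interaction, the log2 fold change in IPO13-/- minus that in IPO13+/+ mESCs. Without a replicate block, none of the 46 genes was called by edgeR, limma-voom or DESeq2, and 7, 4 and 3 of them had an unadjusted p below 0.05. Of all genes tested 2.01% had a higher and 0.705% a lower interaction call, and of the 7650 genes 3.93% and 0.641%. At these shares a count of 0 among 46 genes is no result about them. The largest values were those of Kpna1 (0.19 ± 0.063 SE, FDR 0.104), Kpna2 (0.15 ± 0.053 SE, FDR 0.128), Xpo6 (0.15 ± 0.065 SE, FDR 0.255), Ran (0.14 ± 0.050 SE, FDR 0.134) and, below 0, Nupl2 (-0.17 ± 0.084 SE, FDR 0.323). The 95% intervals of all 46 differences lay between -0.34 and 0.32. The difference was above 0 for 41 of the 46 genes, beside 5087 of the 7650 genes and 10408 of all 19424 genes tested. Its median was 0.06, against 0.04 over the 7650 genes. With library totals the difference was above 0 for 19 of the 46 genes, with a median of -0.012. Without untreated IPO13+/+ replicate 1, Kpna2, Ran and Rcc1 were called, and without replicate 2, Kpna1 and Xpo6.

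Other genes of nuclear transport were taken as lists: further importins, further nucleoporins, mRNA export factors, RAN and SUMO partners of the pore and nuclear envelope genes, 52 genes in all. After H2O2, 13 of them fell and 6 rose in IPO13+/+ mESCs, and 6 fell and 12 rose in IPO13-/- mESCs. The 25% that fell and 11.5% that rose in IPO13+/+ mESCs lay close to the 26.3% and 12.5% of the 7650 genes, and in IPO13-/- mESCs 11.5% fell and 23.1% rose beside 22.6% and 21.7%. Between the genotypes 20 were lower and 7 higher in untreated and 12 lower and 15 higher in treated IPO13-/- mESCs, which is 38.5% and 13.5% beside 31.8% and 21.6% of the 7650 genes without H2O2, and 23.1% and 28.8% beside 23.3% and 26.2% with it. No gene of these lists was called with a 2-fold change. Of the 10 further importins, 6 were lower and 0 higher in untreated IPO13-/- mESCs, with a median log2 fold change of -0.15, and 4 were lower and 1 higher after H2O2. Of the 5 further nucleoporins 1 was higher and 2 lower, in untreated and in treated cells alike. An interaction call was made for 2 of the 52 genes, named here after their values were seen: Mcm3ap, the scaffold of an mRNA export complex (0.25 ± 0.060 SE, FDR 0.0185), and Lmna, which encodes A-type lamins (0.36 ± 0.072 SE, FDR 0.00347). Higher calls thus made up 3.85% of the 52 genes, beside 3.93% of the 7650 genes, so that their count is no result about these lists.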

How the data were processed

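RNA of 8 mESC libraries was sequenced from Illumina TruSeq mRNA libraries. The authors deposited whole-number read counts per gene symbol and the same values as CPM, each count divided by its library total. The submitters' processing notes name bcl2fastq, STAR 2.3.1, HTSeq, limma and the build mm10, and the annotation and strand setting are not given in the sources used here. Depth was 60397877 to 73789079 counted reads, and 3 counts, the smallest share told from 0 by counting error alone, equal 0.0407 to 0.0497 CPM. Replicate pairs differed by more than sampling noise, with a mean chi-square per gene (1 degree of freedom) of 15.0 for untreated and 2.27 for treated IPO13+/+ and 4.58 and 6.59 for untreated and treated IPO13-/- mESCs, so that the untreated IPO13+/+ pair stood furthest apart.

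Counts were analysed in R 4.3.3 with edgeR 4.0.16 (TMM factors, glmQLFit and glmQLFTest, 1 coefficient per group, Benjamini-Hochberg adjustment over 19424 genes). The deposited CPM were used for a check only. Each standard error follows from the test, as fold change (log2, absolute) over the root of F. Intervals span 1.96 standard errors to either side, which is somewhat narrower than a 95% interval of this F test. Alternatives used limma 3.58.1 (voom), DESeq2 1.42.0, other scaling and filters, the replicate block and leaving out libraries. With 2 libraries against 2, an exact permutation test cannot go below 0.333, so none was run. The members, taken by name, and the gene lists were chosen with earlier results of these data known. Given in full, as CPM per library, are the 5 most raised and 5 most reduced members called in each comparison (minimum 10 counts in each library of some group). Positions and exon lengths are from GENCODE M21 (GRCm38), promoters from RefSeq.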

Additional observations from a re-analysis of the deposited data

How the results depend on the processing

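No comparison placed any of the 46 genes past a 2-fold change under any of 15 alternatives. Counts of genes past the threshold stayed within 1.5 times the reported count in 140 recomputations and moved further in 23. The reported 23 genes lower after H2O2 in IPO13+/+ mESCs became 9 when only the 4 libraries compared were fitted, and 8 to 27 when libraries were left out in turn. Leaving out libraries gave 1 to 13 lower genes after H2O2 in IPO13-/- mESCs (12 reported), 7 to 18 between untreated genotypes (18 reported), 0 to 11 between treated genotypes (6 reported) and 0 to 3 higher interaction calls (0 reported). A group left with 1 library was assumed to vary like the others. Library totals gave 6 lower genes between untreated genotypes. Relative log expression factors, the replicate block and the fit of 4 libraries gave 11, 11 and 10 lower genes between treated genotypes. The cause of these shifts was not tested. The counts under the alternatives are not set beside the share of all genes called under the same alternative.

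The replicate number as a block gave 3 higher interaction calls, Kpna1, Kpna2 and Ran. The labels do not say what the numbers share. Deviations of libraries with the same number correlated between -0.091 and 0.65 over 8620 genes, above 0.1 for 3 of 6 pairs of groups. Untreated IPO13+/+ mESCs reached 0.37 with untreated and 0.65 with treated IPO13-/- mESCs, and the IPO13-/- groups reached 0.36 with each other. The other pairs all included treated IPO13+/+ mESCs, whose replicates differed least. Whether that smaller spread bears on these correlations was not tested. Whether the numbers pair the libraries was thus not settled, and the main fit did not use them. Of the fold changes of the fully described genes, 549 recomputed values kept direction and call, 36 kept direction and lost the call, and none reversed. This tally and that of the counts include fits without a library outside the comparison, which could scarcely change a direction. The tally of counts also includes the unchanged count of 0 genes past 2-fold. The fully described genes were picked for large called changes, so the tallies are no measure of robustness for the other genes. Depth was high for all 46 genes, and the number of libraries limits the precision, with standard errors of up to 0.060 on the log2 scale, and up to 0.084 for the interaction.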
